A study of Mus musculus with 9 samples.

Results

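The Kruppel-like factors examined here are 9 zinc finger transcription factor genes with known roles in gut epithelium, Klf3, Klf4, Klf5, Klf6, Klf9, Klf10, Klf13, Klf15 and Klf16. They were chosen by name and found by Ensembl identifier, and all 9 were present among the 48795 genes of the expression table. RNA came from mouse colon organoids, epithelial cultures grown from colonic crypts, of wild type (WT) mice and of mice labelled AHR KO. In the latter the aryl hydrocarbon receptor gene is floxed and deleted by a Cre recombinase under the epithelial Villin promoter. Organoids in WENR medium (Wnt, EGF, Noggin and R-spondin) were given DMSO, the solvent, or 5 nM FICZ, a tryptophan derivative that is a high-affinity AHR ligand, for 4 h. The libraries numbered 9, with 2 of WT under DMSO, 3 of WT under FICZ, 2 labelled AHR KO under DMSO and 2 labelled AHR KO under FICZ. Per the study's methods the mice were WT littermates and Villin-Cre animals on a C57BL/6 background, and the shared culture medium held an inhibitor of the TGF-beta receptor kinase. The labels do not say that equal replicate numbers are the same animal, so the tests describe the spread between these libraries.

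Kruppel-like factors bind GC-rich and CACCC elements through 3 zinc fingers near the C terminus, and differ in the activating or repressing regions that precede them. In the intestine Klf5 is found in dividing crypt cells and Klf4 in cells that have left the cycle, where it is needed for goblet cell maturation in the colon. The AHR is a transcription factor that, once bound by a ligand, pairs with ARNT on DNA elements with a GCGTG core. The comparisons address whether FICZ moves the Kruppel-like factor genes, whether it does so in organoids labelled AHR KO, and whether the genotypes differ under each treatment.

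The libraries had summed normalised counts of 23177058 to 25033827. Of the values at the low end, 53.9 to 62.7% lay within 0.05 of a whole number of steps, so read counts were not recovered. Ahr itself was not lower in the libraries labelled AHR KO. It had normalised counts of 786.5 and 858.0 in WT under DMSO, 790.7, 798.0 and 782.7 in WT under FICZ, 1403.8 and 1346.4 in the labelled AHR KO under DMSO, and 1442.7 and 1387.2 in the labelled AHR KO under FICZ. A count per gene includes reads from exons outside the floxed part and cannot show its loss, so the genotype is given here as labelled. Cyp1b1, a direct AHR target, had 1631.8 and 1078.1 in WT under DMSO against 34.5 and 25.4 in the labelled AHR KO under DMSO. Under FICZ, Cyp1a1, the classical AHR target, reached 6987.5 to 7958.2 in WT and 100.3 and 138.8 in the labelled AHR KO, from 5.84 and 0 in WT and 0 and 2.93 in the labelled AHR KO under DMSO. Cyp1b1 under FICZ was at 8897.8 to 10599.6 in WT and at 136.6 and 222.0 in the labelled AHR KO. FICZ thus still raised Cyp1a1 and Cyp1b1 in the libraries labelled AHR KO (adjusted p = 0.00209 for Cyp1a1 and 0.00112 for Cyp1b1, limma). Each of these calls was made in 22 of 22 alternative analyses. Tiparp, a further AHR target, was not called there (log2 difference 0.13, adjusted p = 0.353, limma). It was at 1064.5 to 1164.3 under DMSO and 1137.2 to 1304.2 under FICZ in the labelled AHR KO. Epithelial markers summed to 215597.6 to 237327.8 across the libraries, mostly from Krt8, Krt18, Cdh1 and Epcam, while the fibroblast, endothelial and smooth muscle lists each summed to at most 5.85. The immune list summed to 476.3 to 713.0, nearly all of it from Cd68.

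Levels were compared between genes only as normalised counts per kb of exonic length. Klf5 had the highest mean level per kb over the 9 libraries, at 1781, with a range of 1297 to 2568, and 95.1% of tested genes lay below it. Klf6 followed at 1224 (range 1052 to 1722) and Klf4 at 1111 (927.6 to 1346). These ranges overlapped for Klf5 and Klf6 and for Klf6 and Klf4. A middle pair was formed by Klf3, at 603.7 (486.4 to 729.1), and Klf10, at 556.4 (499.8 to 656.0). Their ranges overlapped each other but not those of Klf4 or Klf13. Klf13 stood at 308.7 (248.4 to 361.8), Klf16 at 238.9 (203.2 to 296.2) and Klf9 at 207.1 (163.0 to 257.3), with neighbouring ranges overlapping. The order within these overlaps changed between groups. In WT under FICZ the mean of Klf4 was 1287.1 and that of Klf6 1133.6. In the labelled AHR KO under FICZ Klf10 was at 542.6 and Klf3 at 488.8, and in WT under DMSO Klf9 was at 211.7 and Klf16 at 210.3. Klf15, known for its control of metabolism in liver and muscle and for its response to glucocorticoids, was at 0 to 2.66 normalised counts in every library. It lay under 3 counts throughout, so no fold is given for it. The filter for testing, a mean of 10 or more, left it out, so the comparisons are of 8 members.

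**Figure D1:**
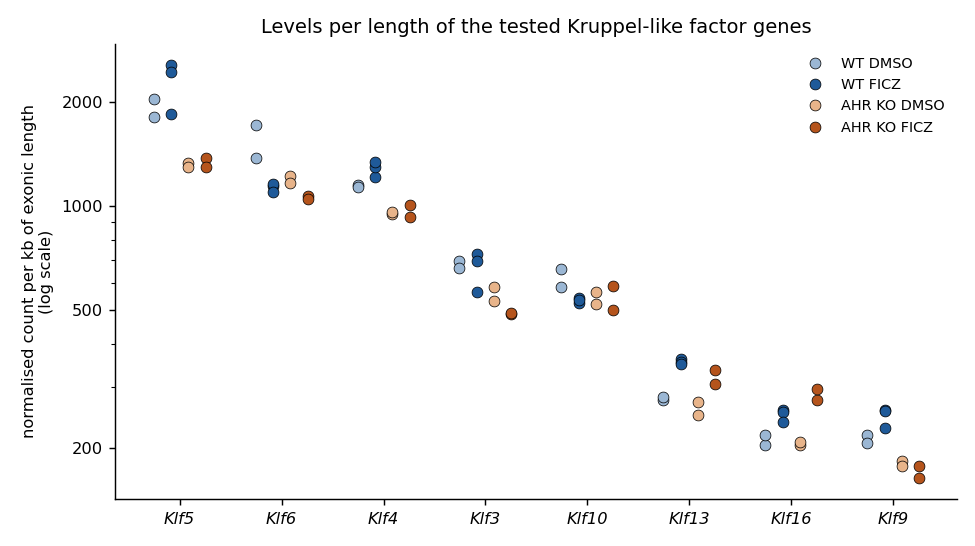
Normalised count per kb of exonic length (log scale) of the 8 tested Kruppel-like factor genes, 1 point per library, coloured by group. Klf5 reached 2568 and Klf9 went down to 163.0, and the libraries labelled AHR KO sat below the WT libraries for Klf4, Klf5 and Klf9.

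Promoter stretches with an AHR core are shown for the tested members that hold one, because FICZ is a ligand of this receptor. Klf15, which was not tested, is left out. RefSeq windows of 250 bases before to 50 bases after the start site (GRCm38.p6) were matched for 6 of the 9 members, Klf3, Klf4, Klf6, Klf9, Klf13 and Klf15. Those of Klf5, Klf10 and Klf16 were not used here. Both strands were searched for GCGTG, and it was present in 5 of the 6 windows, once each in Klf3, Klf6, Klf9 and Klf13, 2 times in Klf15 and 0 times in Klf4. It was present in 32.4% of all 32851 windows, which are not matched to these for base composition, the member windows being 63.0 to 76.7% G and C. The stretches below are written 5′ to 3′ on the strand of the gene, with GCGTG or its reverse complement CACGC in capitals. Klf13, chr7:63939056-63939090, minus strand, is from 175 to 141 bases before the start. Klf6, chr13:5861307-5861341, plus strand, is from 182 to 148 bases before. Klf9, chr19:23141014-23141048, plus strand, is from 212 to 178 bases before. Klf3, chr5:64803343-64803377, plus strand, is from 178 to 144 bases before.
Klf13: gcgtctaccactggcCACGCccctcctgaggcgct
Klf6: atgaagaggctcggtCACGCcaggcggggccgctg
Klf9: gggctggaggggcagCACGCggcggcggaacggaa
Klf3: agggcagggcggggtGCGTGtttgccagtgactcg
The Klf6 match also fitted the longer form TNGCGTG on the reverse strand, which 5.07% of all windows held and which contains the shorter core. None of the other 5 windows held it. The GC box GGGCGG, a usual site of this family and of the SP factors, occurred 6 times in the Klf3 window, 4 times in Klf4, 3 times in Klf13, once each in Klf6 and Klf15 and 0 times in Klf9, against 35.7% of all windows with at least 1. The CACCC box, present in 57.5% of all windows, occurred 5 times in Klf3, once each in Klf9, Klf13 and Klf15 and 0 times in Klf4 and Klf6. In the GENCODE M21 annotation the 133 bases just before the Klf3 start used here lie in a Klf3 exon. For Klf6 this holds for 7 bases. The Klf3 GC box 89 bases before the start and the CACCC boxes 120, 111 and 48 bases before it are in that exonic part. The stretches shown above hold 0 exonic bases. These matches describe the letters in the windows.

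FICZ moved 5 of the 8 tested members in WT organoids. Klf13 and Klf16, related repressors that recruit SIN3, Klf9, a repressor induced by glucocorticoids and thyroid hormone, and Klf4 were higher, and Klf6, a widely expressed early-response factor, was lower. A gene was called at an adjusted p under 0.05 in limma (Benjamini-Hochberg over all 12741 tested genes, two-sided). The background was high, with 30.8% of all tested genes called in this comparison, 15.1% higher and 15.7% lower. The median log2 difference was 0.20 over the 8 members and -0.01 over all tested genes.

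Klf13 (chromosome 7, 63886351 to 63938915, GRCm38) had normalised counts of 2064.1 and 2104.1 in WT under DMSO and of 2724.4, 2656.0 and 2636.6 under FICZ. All 3 FICZ libraries lay above both DMSO libraries, as for 27.5% of all tested genes, and the replicates were close together. The log2 difference was 0.36 (95% interval 0.23 to 0.49, a fold of 1.28, adjusted p = 0.00184, limma) and it was called in 22 of 22 alternative analyses. It fell to 0.22 (adjusted p = 0.034) once the dependence of the log values on GC content and transcript length had been removed, when 17.9% of all genes were called. Opposite-strand genes Gm27252 and E030018B13Rik overlap Klf13 in the annotation.

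Klf6 (chromosome 13, 5861482 to 5870394) had 7560.2 and 6054.1 under DMSO and 5025.0, 5084.0 and 4823.6 under FICZ in WT. The FICZ libraries were close together and all below the DMSO libraries, as for 28.9% of all tested genes, and of the DMSO libraries replicate 2 was the higher. The log2 difference was -0.44 (-0.62 to -0.26, a fold of 0.74, adjusted p = 0.00294, limma). It was also called in 22 of 22 alternatives, between -0.60 and -0.28.

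Klf16 (chromosome 10, 80567124 to 80577321) had 543.3 and 581.3 under DMSO and 685.2, 679.7 and 635.8 under FICZ. Klf9 (chromosome 19, 23141226 to 23168134) had 1047.6 and 990.7, then 1238.7, 1099.8 and 1230.8. Klf4 (chromosome 4, 55527143 to 55532466) had 3509.2 and 3466.3, then 3715.4, 3954.7 and 4102.6. In all 3 genes every FICZ library was above both DMSO libraries, as for 27.5% of all tested genes. The log2 differences were 0.25 for Klf16 (0.08 to 0.41, adjusted p = 0.0305), 0.22 for Klf9 (0.06 to 0.39, adjusted p = 0.0446) and 0.17 for Klf4 (0.04 to 0.30, adjusted p = 0.0489, limma). These calls were close to the threshold, and of 22 alternatives Klf16 was called in 15, Klf9 in 11 and Klf4 in 8. Mir1192 lies within Klf9 on the same strand. With the GC and length trend removed, Klf16 stood at -0.091 (adjusted p = 0.487) and Klf4 at -0.014 (adjusted p = 0.906), and their transcripts had the highest G and C content among the members, 60.4% and 57.7%. Klf9 kept its call there (0.24, adjusted p = 0.0482). The adjusted p rose to 0.19 for Klf16 without WT DMSO replicate 2, 0.0634 without WT DMSO replicate 3, 0.0823 without WT FICZ replicate 1 and 0.0571 without WT FICZ replicate 2. For Klf9 it rose to 0.0988 and 0.228 without WT DMSO replicate 2 and 3, 0.121 and 0.125 without WT FICZ replicate 1 and 3, and 0.0639 and 0.0638 without AHR KO DMSO replicate 1 and 3. For Klf4 it rose to 0.152 and 0.19 without WT DMSO replicate 2 and 3, 0.075 and 0.148 without WT FICZ replicate 2 and 3, and 0.072 and 0.0722 without AHR KO DMSO replicate 1 and 3.

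The other 3 tested members were not called in WT. Klf10 (chromosome 15, 38291463 to 38300706), first described as an early gene induced by TGF-beta, had 2741.6 and 2432.5 under DMSO and 2195.4, 2258.9 and 2232.8 under FICZ. Its FICZ libraries lay below both DMSO libraries, as for 28.9% of all tested genes. The log2 difference of Klf10 was -0.21 (-0.38 to -0.04, adjusted p = 0.061, limma). Without AHR KO FICZ replicate 1 or 3 the adjusted p was 0.0334 or 0.033. Klf5 (chromosome 14, 99298691 to 99315036), the crypt factor, had 10645.8 and 9423.9 under DMSO and 13358.6, 9623.8 and 12694.2 under FICZ. FICZ replicate 2 lay between the DMSO libraries while the other two lay above them, and the log2 difference was 0.23 (-0.03 to 0.50, adjusted p = 0.164). Without that library it was 0.38 (adjusted p = 0.00269, limma). Klf3 (chromosome 5, 64803388 to 64832901), a repressor that recruits CtBP, had 7812.2 and 7433.4, then 8197.7, 6323.2 and 7792.1, with the same replicate again lowest. Its log2 difference was -0.04 (-0.26 to 0.17, adjusted p = 0.768) and became 0.069 (adjusted p = 0.396, limma) without that replicate. Klf3 shares its locus with C230096K16Rik on the same strand and Gm20033 on the opposite strand.

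**Figure D2:**
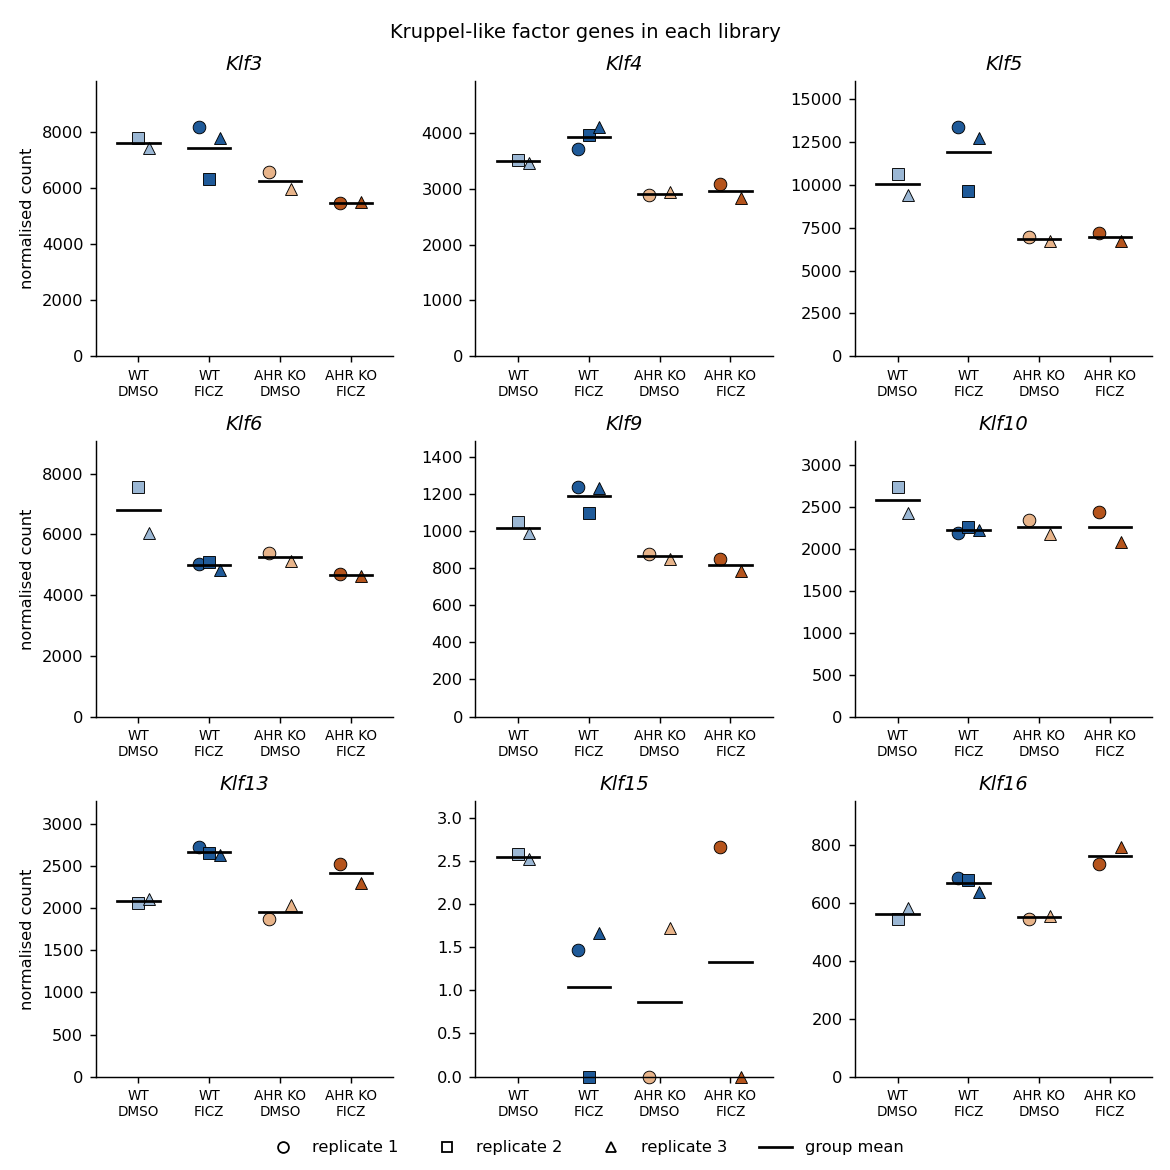
Normalised counts of the 9 Kruppel-like factor genes in each library, with group on the x axis, a marker shape for the replicate number and a bar at the group mean. Klf13 rose from 2064.1 and 2104.1 to 2636.6 and above in WT with FICZ, Klf6 fell to 5084.0 or below, and Klf15 stayed under 3 counts.

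In the organoids labelled AHR KO, FICZ moved 2 of the 8 members, Klf13 and Klf16, both upwards. In these libraries Cyp1a1 and Cyp1b1 also rose with FICZ, and Tiparp was not called. Of all tested genes, 19.7% were called in this comparison, 10.2% higher and 9.48% lower. Klf16 had 545.0 and 555.9 under DMSO and 732.3 and 792.1 under FICZ. Klf13 had 1870.7 and 2035.1 under DMSO and 2528.7 and 2304.4 under FICZ. Both FICZ libraries were above both DMSO libraries for each gene, as for 31.0% of all tested genes. The log2 difference was 0.47 for Klf16 (0.29 to 0.65, a fold of 1.38, adjusted p = 0.00497) and 0.31 for Klf13 (0.16 to 0.45, a fold of 1.24, adjusted p = 0.0111, limma).

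With the GC and length trend removed, neither gene was called in the labelled AHR KO (limma). Klf16 then stood at 0.05 (adjusted p = 0.822), Klf13 at 0.12 (adjusted p = 0.381), and 3.61% of all genes were called. Among all called genes the share that was higher was 51.9% in the main analysis and 38.6% with the trend removed. Without AHR KO DMSO replicate 1 neither was called (0.45, adjusted p = 0.054, for Klf16 and 0.25, adjusted p = 0.111, for Klf13), and without AHR KO FICZ replicate 1 Klf13 had an adjusted p of 0.0607.

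The other 6 tested members were not called with FICZ in the labelled AHR KO. Klf4 had 2890.1 and 2931.4 under DMSO and 3077.2 and 2828.2 under FICZ, a log2 difference of 0.02 (-0.12 to 0.16, adjusted p = 0.86). Klf5 had 6924.3 and 6745.0, then 7191.1 and 6747.4, a difference of 0.03 (-0.26 to 0.32, adjusted p = 0.908). Klf9 had 879.0 and 849.2, then 852.1 and 784.9, a difference of -0.08 (-0.26 to 0.10, adjusted p = 0.534). In each of these genes the groups overlapped. Klf6 had 5379.5 and 5125.1, then 4710.5 and 4620.7, below the DMSO libraries as for 31.5% of all tested genes, and a difference of -0.17 (-0.37 to 0.03, adjusted p = 0.2). Klf3 had 6577.6 and 5965.7, then 5468.8 and 5521.9, again with no overlap, and a difference of -0.19 (-0.42 to 0.05, adjusted p = 0.234). Without WT FICZ replicate 2, whose values add to the shared estimate of spread, Klf3 had an adjusted p of 0.0432. Klf10 had 2351.0 and 2180.1, then 2446.4 and 2088.5, and its interval was -0.19 to 0.19 (adjusted p = 0.987, limma).

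The difference between the FICZ responses of WT and the labelled AHR KO was tested directly. None of the 8 members was called in limma, where 0.447% of all tested genes were, 0.377% on the higher and 0.0706% on the lower side. At an unadjusted p under 0.05 there were 2 of the 8, beside 7.47% of all tested genes. These were Klf9, with a WT minus AHR KO difference of 0.30 on the log2 scale (0.06 to 0.54, adjusted p = 0.52), and Klf6, with -0.27 (-0.54 to -0.01, adjusted p = 0.649, limma). For Klf13 the difference of responses was 0.05 (-0.14 to 0.25, adjusted p = 0.964) and for Klf16 it was -0.22 (-0.47 to 0.02, adjusted p = 0.72). The remaining members lay between -0.21 for Klf10 and 0.21 for Klf5. For Klf5 the interval of the difference went from -0.19 to 0.60 and for Klf4 from -0.04 to 0.34. The calls made in WT and not in the labelled AHR KO, those of Klf4, Klf6 and Klf9, were not shown to differ between genotypes.

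**Figure D3:**
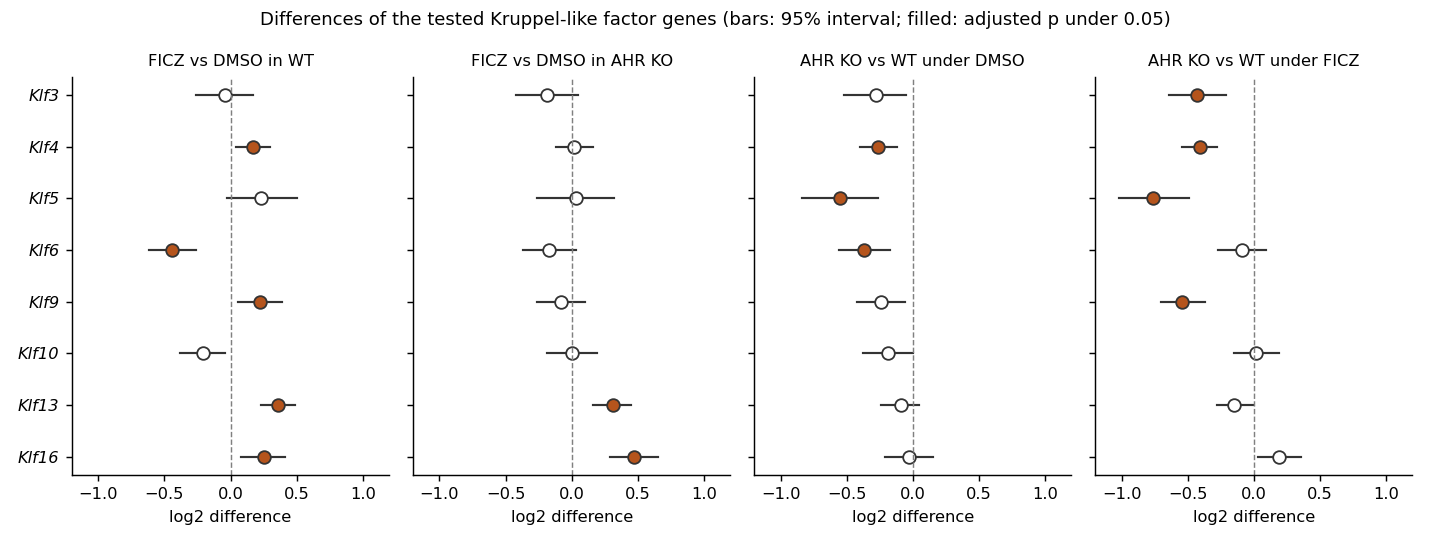
Log2 differences (x axis) of the 8 tested Kruppel-like factor genes in 4 comparisons, with 95% intervals as bars and filled points at an adjusted p under 0.05 in limma. With FICZ the filled points of Klf13 and Klf16 lie to the right in both genotypes, at 0.25 to 0.47, and between genotypes the filled points all lie to the left, Klf5 under FICZ farthest at -0.76.

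Under FICZ, Klf3, Klf4, Klf5 and Klf9 were lower in the organoids labelled AHR KO than in WT, and Klf16, with the largest positive difference, was not called. Of all tested genes 20.0% were called, 9.48% higher and 10.5% lower. The comparisons between genotypes use the same libraries as the FICZ comparisons above, so the values below are those already given. Klf5 was between 9623.8 and 13358.6 in WT and at 7191.1 and 6747.4 in the labelled AHR KO, apart as for 24.4% of all tested genes in this direction, with a log2 difference of -0.76 (-1.02 to -0.49, a fold of 0.59, adjusted p = 0.00148). Klf9 was between 1099.8 and 1238.7 in WT and at 852.1 and 784.9, a difference of -0.54 (-0.70 to -0.37, adjusted p = 0.000688). Klf4 was between 3715.4 and 4102.6 in WT and at 3077.2 and 2828.2, a difference of -0.41 (-0.54 to -0.28, adjusted p = 0.000792, limma). The calls of Klf4, Klf5 and Klf9 were made in 22 of 22 alternatives. Klf3 was between 6323.2 and 8197.7 in WT and at 5468.8 and 5521.9, a difference of -0.43 (-0.64 to -0.21, adjusted p = 0.0111, limma). That call was made in 19 of 22 alternatives. It was lost without AHR KO FICZ replicate 1 (adjusted p = 0.0568) or 3 (adjusted p = 0.0636), which leaves 1 library in the group, and without a variance trend in the fit (adjusted p = 0.0519).

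The other 4 tested members were not called in that comparison. Klf16 stood at 0.19 (0.03 to 0.36, adjusted p = 0.098), Klf13 at -0.15 (-0.28 to -0.01, adjusted p = 0.111), Klf6 at -0.09 (-0.27 to 0.09, adjusted p = 0.461) and Klf10 at 0.02 (-0.15 to 0.19, adjusted p = 0.885, limma). The groups overlapped for Klf10 alone among these, and Klf16 lay wholly above WT, as did 22.9% of all tested genes.

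Under DMSO, Klf4, Klf5 and Klf6 were lower in the labelled AHR KO, 3 of the 8 members, where 9.05% of all tested genes were called, 4.83% lower and 4.21% higher. Klf5 had 10645.8 and 9423.9 in WT and 6924.3 and 6745.0 in the labelled AHR KO, with a log2 difference of -0.55 (-0.84 to -0.26, a fold of 0.68, adjusted p = 0.0263). Klf6 had 7560.2 and 6054.1 against 5379.5 and 5125.1, a difference of -0.37 (-0.56 to -0.17, adjusted p = 0.0286). Klf4 had 3509.2 and 3466.3 against 2890.1 and 2931.4, a difference of -0.26 (-0.40 to -0.12, adjusted p = 0.0297, limma). The groups did not overlap for these genes, as for 31.4% of all tested genes in this direction and 26.6% in the other. Klf3 at -0.28 (-0.52 to -0.05, adjusted p = 0.134), Klf9 at -0.24 (-0.42 to -0.06, adjusted p = 0.102) and Klf10 at -0.19 (adjusted p = 0.205) were not called, nor were Klf13 at -0.09 (-0.24 to 0.05, adjusted p = 0.417) and Klf16 at -0.03 (-0.21 to 0.15, adjusted p = 0.865, limma). The groups overlapped for Klf16 alone among these.

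The calls of Klf4 and Klf5 were lost when any 1 of the 4 DMSO libraries was left out, and that of Klf6 with 3 of them. The adjusted p of Klf5 was 0.171, 0.0605, 0.114 and 0.154, and that of Klf4 was 0.15, 0.116, 0.148 and 0.141, without WT DMSO replicate 2, WT DMSO replicate 3, AHR KO DMSO replicate 1 and AHR KO DMSO replicate 3 in turn. For Klf6 it was 0.157 without WT DMSO replicate 2, when the difference was -0.21, and 0.0972 and 0.186 without AHR KO DMSO replicate 1 and 3, while without WT DMSO replicate 3 the difference was -0.53 (adjusted p = 0.00452). Klf3 was called without WT FICZ replicate 2 (adjusted p = 0.0143, limma).

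Some markers of differentiated colon cells moved with genotype in the same libraries. The mature colonocyte list (Slc26a3, Car4, Krt20 and Alpi) summed to 906.4 to 1195.5 in the 5 WT libraries and to 433.2 to 708.8 in the 4 labelled AHR KO libraries. It was nearly all Krt20, at 853.4 to 1149.4 in WT and 428.9 to 692.1 in the labelled AHR KO. Krt20 was lower in the labelled AHR KO by -0.72 under DMSO (adjusted p = 0.0281) and -0.95 under FICZ (adjusted p = 0.00207, limma). These calls were made in 15 and 22 of 22 alternatives. Slc26a3 reached at most 35.6, and Car4 and Alpi were below the filter. Slc26a3 was lower in the labelled AHR KO under FICZ by -2.61 (adjusted p = 0.000814, limma), called in 21 of 21 alternatives. Under DMSO it was not called, at -0.73 (adjusted p = 0.308, limma). The goblet list (Muc2, Tff3, Clca1 and Fcgbp) summed to 3510.0 to 5562.9 in WT and to 1227.0 to 1689.9 in the labelled AHR KO, mostly from Clca1 and Fcgbp. Clca1 was lower in the labelled AHR KO by -2.21 under DMSO (adjusted p = 0.000299) and -2.03 under FICZ (adjusted p = 7.6e-05, limma). Fcgbp was lower by -0.79 (adjusted p = 0.0203) and -1.17 (adjusted p = 0.000698, limma). Neither sum overlapped between genotypes, but Muc2, the main colonic mucin, did, at 73.1 to 434.6 in WT and 73.4 to 156.2 in the labelled AHR KO. Muc2 and Tff3 were not called. Within the epithelial list of 7 genes, 3 were called lower in the labelled AHR KO under DMSO (4.83% of all tested genes), and 3 lower (10.5% of all) and 1 higher (9.48% of all) under FICZ. Epcam was lower in the labelled AHR KO by -0.43 under DMSO (adjusted p = 0.00846) and -0.46 under FICZ (adjusted p = 0.00145, limma). The intestinal homeobox genes were lower too, Cdx1 by -1.15 (adjusted p = 0.000191) and -1.43 (adjusted p = 8.02e-06) and Cdx2 by -0.43 (adjusted p = 0.0191) and -1.08 (adjusted p = 2.23e-05, limma). Krt18 was higher by 0.38 under FICZ (adjusted p = 0.00575, limma), with 0.16 under DMSO (adjusted p = 0.284), and Krt8, Cdh1 and Vil1 were not called. With FICZ in WT, Cdx2 was higher by 0.80 (adjusted p = 0.000271) and Cdx1 by 0.40 (adjusted p = 0.0104, limma), the latter called in 20 of 22 alternatives with an adjusted p of up to 0.889. Fewer cells of a type and less RNA per cell cannot be told apart in these bulk libraries, and the part of cell composition in the lower Klf4, Klf5 and Klf9 was not tested. WT FICZ replicate 2, lowest of its group for Klf3, Klf5 and Klf9, had the lowest goblet sum in WT, but its mature colonocyte sum of 947.1 was above that of replicate 1 and its epithelial sum of 234792.2 was the highest of its group.

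**Figure D4:**
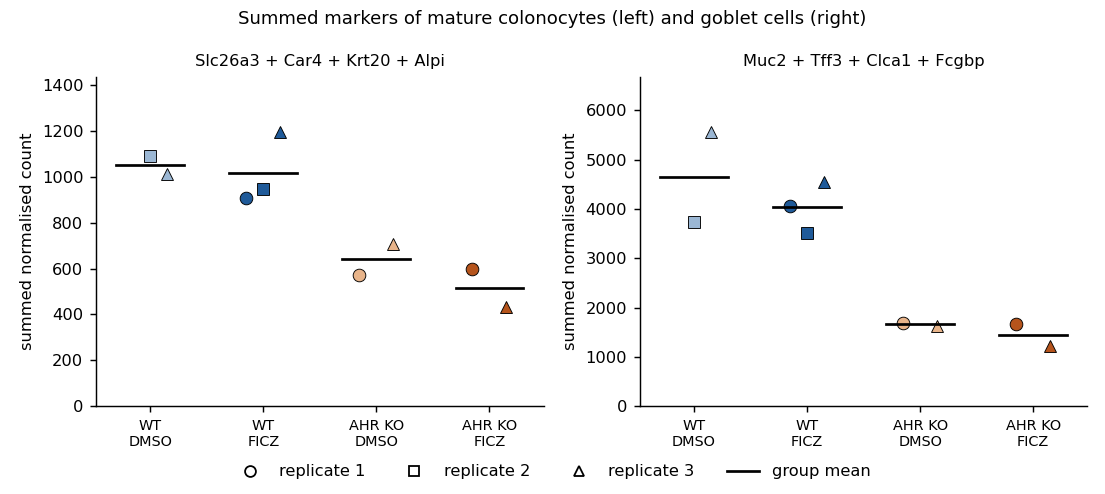
Summed normalised counts of mature colonocyte markers (left) and goblet markers (right) in each library, by group, with a marker shape for the replicate number and a bar at the group mean. The labelled AHR KO libraries lay at 708.8 or below on the left and 1689.9 or below on the right, under every WT library.

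Across the 9 libraries the members fell into patterns that are given as descriptions, since genotype and treatment are shared by every gene. On the log2 scale Klf9 followed Klf5 with a Pearson r of 0.971 and Klf4 with 0.94, and Klf4 followed Klf5 with 0.901. Klf3 followed Klf5 with 0.879, Klf9 with 0.843 and Klf4 with 0.69. Klf6 and Klf10 had an r of 0.83, Klf13 and Klf16 of 0.713, and Klf6 and Klf16 of -0.697. Klf4, Klf13 and Klf9 had the largest moderated F over the 4 groups among the members, exceeded by 8.92, 10.1 and 11.3% of tested genes. Among 10240 other genes with a mean of 100 or more, the patterns most like Klf4 were those of Coro2a, an actin-binding coronin (r = 0.991), Pllp, a membrane proteolipid (0.988), and Ppp1r14d, a phosphatase inhibitor (0.986). Those most like Klf13 were Dedd2 (0.99), Coq8b, of coenzyme Q synthesis (0.987), and the Wnt receptor Fzd8 (0.986). Those most like Klf9 were Irak4, the kinase of interleukin receptor signalling (0.989), Mcu, the mitochondrial calcium uniporter (0.988), and Fam3b (0.987).

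The remaining Kruppel-like and SP genes were mostly low or not called. Of 17 genes, 9 were tested. Sp3, which binds the same GC boxes, was lower with FICZ in WT (log2 difference -0.23, adjusted p = 0.00728) and in the labelled AHR KO (-0.34, adjusted p = 0.00423, limma). It was the only one of the 9 called in WT, where 30.8% of all tested genes were. Sp5, a Wnt target gene, had 243.4 and 259.1 normalised counts in the labelled AHR KO under DMSO and 368.8 and 420.4 under FICZ. The FICZ values lay above every WT library, the WT values being 189.8 to 265.3. Its difference with FICZ in the labelled AHR KO was 0.65 (adjusted p = 0.00991) and its difference from WT under FICZ was 0.75 (adjusted p = 0.00174, limma). The former was called in 19 of 22 alternatives, with an adjusted p of up to 0.559, and the latter in 22. Klf2, at 21.5 to 56.9 counts, was lower in the labelled AHR KO under FICZ by -0.99 (adjusted p = 0.0199, limma), as was Sp3 by -0.25 (adjusted p = 0.00705). Under DMSO 0 of the 9 were called between genotypes (9.05% of all tested genes), with 2 at an unadjusted p under 0.05 (23.8% of all). In the difference of responses 0 of the 9 were called (0.447% of all), with 1 at an unadjusted p under 0.05 (7.47% of all, limma).

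Among 12 cofactors and regulators of these proteins, 6 were called with FICZ in WT, 3 in each direction, beside 30.8% of all tested genes (15.1% higher and 15.7% lower). Hdac2, a deacetylase of SIN3 complexes, had 3528.1 and 3513.2 in WT under DMSO and 2531.7 to 2770.9 under FICZ (log2 difference -0.42, adjusted p = 0.000477, limma). Fbxw7 and Wwp1, ubiquitin ligase components that act on KLF5 protein, were also lower, by -0.29 (adjusted p = 0.0165) and -0.24 (adjusted p = 0.0193, limma). The acetyltransferase genes Ep300, at 0.23 (adjusted p = 0.0246), and Crebbp, at 0.34 (adjusted p = 0.0478), and the corepressor gene Sin3b, at 0.25 (adjusted p = 0.0394, limma), were higher. Of 22 alternatives, Crebbp was called in 7, Sin3b in 12, Ep300 in 16, Wwp1 in 18, Fbxw7 in 19 and Hdac2 in 22. In the labelled AHR KO 4 of the 12 were called, beside 19.7% of all tested genes, a share that fell to 3.61% with the GC and length trend removed. These were Hdac2 at -0.33 (adjusted p = 0.00477), Sin3b at 0.42 (adjusted p = 0.0113), Ep300 at 0.33 (adjusted p = 0.0142) and Wwp1 at -0.26 (adjusted p = 0.0291, limma), called in 20, 19, 18 and 15 of 22 alternatives, with adjusted p-values of up to 0.173, 0.111, 0.0858 and 0.42. Between genotypes Sin3a alone was called, under FICZ, at -0.37 (adjusted p = 0.0488, limma), a call made in 7 of 22 alternatives. Of all tested genes, 20.0% were called between genotypes under FICZ, 10.5% lower, and 9.05% under DMSO.

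Of 7 genes reported as targets of KLF4 or KLF5 in gut, 6 were tested and Alpi was below the filter. Ccnd1, the cyclin D1 gene, had 18996.7 and 19710.2 in WT under DMSO and 29285.8 and 29419.8 in the labelled AHR KO. It was higher in the labelled AHR KO by 0.60 under DMSO (adjusted p = 0.00056) and by 0.68 under FICZ (adjusted p = 4.52e-05, limma). No other list gene was called between genotypes, where 9.05% of all tested genes were called under DMSO and 20.0% under FICZ. With FICZ, Odc1, of polyamine synthesis, was lower in WT by -0.17 (adjusted p = 0.019), and Cdk1, the mitotic kinase, by -0.19 in WT (adjusted p = 0.0474) and -0.27 in the labelled AHR KO (adjusted p = 0.0229, limma). Cdk1 was called in 8 and 16 of 22 alternatives and Odc1 in 15. The share of all tested genes called with FICZ was 30.8% in WT and 19.7% in the labelled AHR KO. Cdkn1a, Krt19 and Ccnb1 were not called in any of the 5 comparisons.

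Klf9 and Klf15 respond to glucocorticoids in many tissues, and 6 of 7 genes of that response were tested. In WT with FICZ, Dusp1, a phosphatase of MAP kinases, was higher by 0.48 (adjusted p = 0.0124) and Fkbp5, a chaperone of the receptor, was lower by -0.21 (adjusted p = 0.0316, limma), the latter called in 14 of 22 alternatives. Nr3c1, the receptor gene, was lower in the labelled AHR KO under FICZ by -0.23 (adjusted p = 0.015, limma). Of all tested genes, 30.8% were called with FICZ in WT and 20.0% between genotypes under FICZ. The list had 0 calls with FICZ in the labelled AHR KO, where 19.7% of all tested genes were called. At an unadjusted p under 0.05 there were 3 of its 6 tested genes, beside 34.3% of all.

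For Klf10 the companion list was 9 genes of TGF-beta signalling, all tested. With FICZ the list had 1 gene called higher and 1 lower in WT, beside 30.8% of all tested genes called. In the labelled AHR KO it had 1 higher and 2 lower, beside 19.7% of all. Between genotypes 1 was higher and 1 lower under each treatment, beside 9.05% of all under DMSO and 20.0% under FICZ. Smad2, a receptor-regulated transducer, had 1738.5 and 1755.8 in WT under DMSO and 1025.1 to 1139.8 under FICZ. It was lower with FICZ by -0.67 in WT (adjusted p = 0.000409) and by -0.52 in the labelled AHR KO (adjusted p = 0.00425, limma). Smad7, the feedback inhibitor, was higher by 0.55 (adjusted p = 0.0383) and the receptor gene Tgfbr1 lower by -0.21 (adjusted p = 0.0427, limma) with FICZ in the labelled AHR KO, called in 13 and 9 of 22 alternatives. Tgfbr2, the ligand-binding receptor, was higher in the labelled AHR KO by 0.43 under DMSO (adjusted p = 0.000941) and 0.47 under FICZ (adjusted p = 0.0001, limma), and Smad4 was lower by -0.26 and -0.21 (adjusted p = 0.05, just under the threshold, and 0.0415, limma), called in 10 of 22 alternatives each.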

How the data were processed

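RNA-seq was made from 9 mouse colon organoid libraries with ribosomal RNA depletion and a stranded kit. The deposited table holds normalised read counts per Ensembl gene (unit: signal), which the authors scaled between libraries and which are not whole numbers. The submitters' processing notes name STAR 2.5.2a, RSEM 1.2.31, DESeq2 1.16.1 and GRCm38, while the methods also name a counting step on another annotation, so which tool gave the values is not settled. A gene symbol was found for 48349 of 48795 identifiers (99.1%) in GENCODE M21. Summed values were 23177058 to 25033827 per library.

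Values were taken as log2(value + 1), so fold changes of low genes are understated. Genes with a mean of 10 or more were tested with limma 3.58.1 in R 4.3.3 (4 group means, eBayes with trend, two-sided, Benjamini-Hochberg adjustment over 12741 genes) in 5 contrasts. Tables and figures used Python 3.11.15, pandas 2.3.3, numpy 2.4.6 and matplotlib 3.10.9. On simulated data for FICZ against DMSO in WT (12741 genes, 200 changed), 5 of 145 calls were false. Of genes changed by 0.5 on the log2 scale 40.3% were recovered, with 79.1% by 1 and 90.9% by 2. In the data 3928 genes were called in that comparison, so the adjustment set a less strict cutoff there. These recovery rates therefore do not carry over to it.

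The members and gene lists were chosen with earlier results of these data known. Named were all members, up to 3 called genes per list and comparison with the smallest adjusted p, the 3 genes most like each of the 3 members with the highest F, 4 label checks, and promoters with an AHR core; further called genes of short lists were named after their values were seen. Alternatives were other pseudocounts, filters, scalings, removal of a GC and length trend, variance models, and leaving out each library. Further alternatives were the replicate number as a block shared by both genotypes, and the organoid line (genotype and replicate number) as a random effect. The result of 1 listed gene is not reported here.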

Additional observations from a re-analysis of the deposited data

Results flagged for a closer look

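Of the results given here, 1 differed between genotypes in a test of the difference itself. The FICZ response of Tiparp, an AHR target gene used to check the labels, was larger in WT than in the organoids labelled AHR KO. The difference was 1.71 on the log2 scale (limma, adjusted p = 0.000155). Normalised counts of 1484.6 and 1420.2 rose to 4922.8 to 5723.0 in WT. In the labelled AHR KO they were 1064.5 to 1164.3 under DMSO and 1137.2 to 1304.2 under FICZ. The difference of responses was not called for Cyp1a1 (5.59, adjusted p = 0.0677) or Cyp1b1 (0.38, adjusted p = 0.881, limma).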

How the results depend on the processing

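Of 880 recomputed log2 differences of the members (40 results), 794 kept direction and side of the threshold, 60 kept direction and lost a call, 9 kept direction and gained one, and 17 changed sign, of which 2 (Klf4 and Klf16 in WT with FICZ) also lost a call. Of 1187 recomputed differences of other named genes (54 results, 13 of them added after seeing the data), 177 lost a call. The 5 members called in WT with FICZ became 3 with no filter, upper-quartile scaling, the GC and length trend removed, only the groups compared, no variance trend or a replicate block, and 2 to 6 with a library left out. The 2 called in the labelled AHR KO became 0 with the GC and length trend removed and 0 to 3 with a library left out. Under DMSO the 3 called between genotypes became 0 with no filter or no variance trend, 1 with quantile normalization and 0 to 4 with a library left out. Under FICZ the 4 became 3 to 4 with a library left out, and the difference of responses stayed at 0. With FICZ in WT, Klf16 changed sign to -0.091 and Klf4 to -0.014 with the GC and length trend removed, and Klf3 to 0.032 with quantile normalization and, with a library left out, between -0.12 and 0.069 (without WT FICZ replicate 2). With FICZ in the labelled AHR KO, Klf4 went to -0.0053 with upper-quartile scaling, -0.23 with the GC and length trend removed and between -0.041 (without AHR KO FICZ replicate 1) and 0.08 with a library left out, Klf5 to between -0.018 (without the same library) and 0.073, and Klf10 to 0.019 with quantile normalization, 0.045 with the trend removed, and between -0.12 and 0.11 with a library left out (0.052 without AHR KO DMSO replicate 1 and 0.11 without AHR KO FICZ replicate 3). Between genotypes Klf16 went to 0.043 with the trend removed and between -0.079 and 0.019 (without WT DMSO replicate 3) under DMSO, and Klf10 to between -0.094 (without AHR KO FICZ replicate 1) and 0.13 under FICZ. In the difference of responses Klf13 went to -0.0092 without AHR KO DMSO replicate 3 and -0.015 without AHR KO FICZ replicate 3, with 0.12 as the highest. The cause of these changes was not tested. Over all genes, 3928 calls with FICZ in WT became 2274 with the trend removed, and 1993 and 2264 without WT DMSO replicate 2 and 3. In the labelled AHR KO 2509 became 458 with the trend removed, 1570 with no variance trend and 419 to 1558 without one of its own libraries. The 57 of the difference of responses became 16 with no variance trend and 23 to 78 without 1 library. The 1153 between genotypes under DMSO became 677 with no variance trend and 389 to 585 without one of its own libraries, and the 2544 under FICZ became 1324 without AHR KO FICZ replicate 3. With upper-quartile scaling the share of higher calls in the labelled AHR KO was 43.5%. Replicate numbers were not taken to pair libraries. Deviations from group means of same-numbered libraries correlated at 0.048 and 0.147 in WT and 0.045 in the labelled AHR KO. Between replicates 2 and 3 in WT they correlated at -0.147 and -0.048, and between 1 and 3 in the labelled AHR KO at -0.045. WT FICZ replicate 1, without a DMSO library of its number, gave 0.081 with DMSO replicate 2 and -0.081 with replicate 3. With 2 DMSO libraries a genotype, their deviations are equal and opposite. The correlations thus come in pairs of opposite sign and cannot settle whether equal numbers pair libraries. The replicate block gave each number 1 effect shared by both genotypes, so it is not a pairing within an organoid line. With this block Klf6, Klf10 and Klf13 were the 3 called in WT, with 2, 0, 3 and 4 members in the other comparisons. With 2 or 3 libraries a group, a lone library left after omission was assumed to vary like the others.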
